A study of Homo sapiens with 20 samples.

Results

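ICAM1, ICAM2, ICAM3, ICAM4, ICAM5 and VCAM1 are the intercellular and vascular cell adhesion molecules of the immunoglobulin superfamily, and they were followed across 20 RNA-seq libraries of U2-OS cells, a human osteosarcoma cell line. The 6 genes were chosen by symbol among the 20314 genes of the deposited read count table. The 4 groups of 5 libraries each were untreated cells, cells at 1.5 h and cells at 7 days after irradiation (IR) with 20 Gy, and non-irradiated cells carrying an shRNA against NFKBIA, which encodes the NF-κB inhibitor IκBα. All cells were grown in DMEM with 10% FCS. The question was how these adhesion genes behave in the early and late phase after DNA damage and after loss of IκBα without damage. According to the methods, knockdown cells were made by lentiviral transduction and clonal selection with puromycin, and inducible vectors were switched on by doxycycline. For untreated cells no vector and no doxycycline are given in the labels, and no library labelled with a scrambled shRNA was analysed here, although the methods describe such cells, given doxycycline, as controls. As labelled, the knockdown comparison does not separate the vector, the selection and any doxycycline from the loss of NFKBIA.

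ICAMs and VCAM1 are ligands on the cell surface that leukocytes grip through integrins. ICAM1 and VCAM1 are classical NF-κB targets, low in resting cells and induced by inflammatory cytokines, and ICAM1 binds the leukocyte integrins LFA-1 and Mac-1 whereas VCAM1 binds VLA-4. ICAM2 is known from endothelium and platelets, ICAM3 from resting leukocytes, ICAM4 from red blood cells as the carrier of the Landsteiner-Wiener blood group, and ICAM5 (telencephalin) from neurons of the forebrain.

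Total counts per library lay between 22535659 and 40390961, with group medians from 32477669 at 7 days to 35627047 at 1.5 h, and no libraries were identical. NFKBIA, given as counts per 1000000 reads after TMM scaling (CPM), was at 11.2 to 13.0 CPM in the 5 knockdown libraries against 23.5 to 42.0 in untreated cells, 76.3 to 88.3 at 1.5 h and 28.4 to 32.4 at 7 days, so it was lowest in every library labelled as knockdown. Osteoblast markers summed to 1860 to 2650 CPM in untreated cells, with RUNX2 at 116 ± 51.5 CPM (SD, n = 5) and COL1A1 at 1970 ± 247, while SP7 and IBSP had 0 to 3 counts. The same sum was 1740 to 1900 CPM at 1.5 h, 1560 to 1770 at 7 days and 706 to 773 in the knockdown. Of the 6 tested, SPP1 (osteopontin) rose by 2.64 on the log2 scale at 7 days and ALPL (alkaline phosphatase) by 0.77, while COL1A1 was at -0.43, BGLAP at -0.40 and RUNX2 at -0.14. These 2 higher calls (16.7% of all tested genes) became 1 with the lane as a term. In the knockdown COL1A1 fell by 1.68 and ALPL by 1.96. The sequencing lane was nearly tied to the group: lane 2 held only untreated libraries, lane 6 only knockdown libraries, and lanes 3, 4 and 5 each held 2 groups. Lane and group can hardly be told apart for comparisons with untreated cells, which share only 1 library (untreated replicate 5, in lane 3) with another group's lane.

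All 6 genes were expressed at a low level. Per kilobase of gene model, ICAM3 led with a mean of 1.4 CPM over the 20 libraries, followed by ICAM1 at 0.239 CPM per kilobase, ICAM5 at 0.0931, ICAM2 at 0.0285, ICAM4 at 0.0164 and VCAM1 at 0.0135. Of the 14992 genes with enough reads to be tested, 23.1% had a lower mean CPM per kilobase than ICAM3 and 8.27% a lower one than ICAM1. ICAM1, ICAM3 and ICAM5 passed the filter on low counts, and ICAM2, ICAM4 and VCAM1 did not: these had 59, 15 and 53 reads in all 20 libraries together. For these 3 genes the reads themselves are given first, and a fit without the filter, over 19097 genes, beside them.

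**Figure D1:**
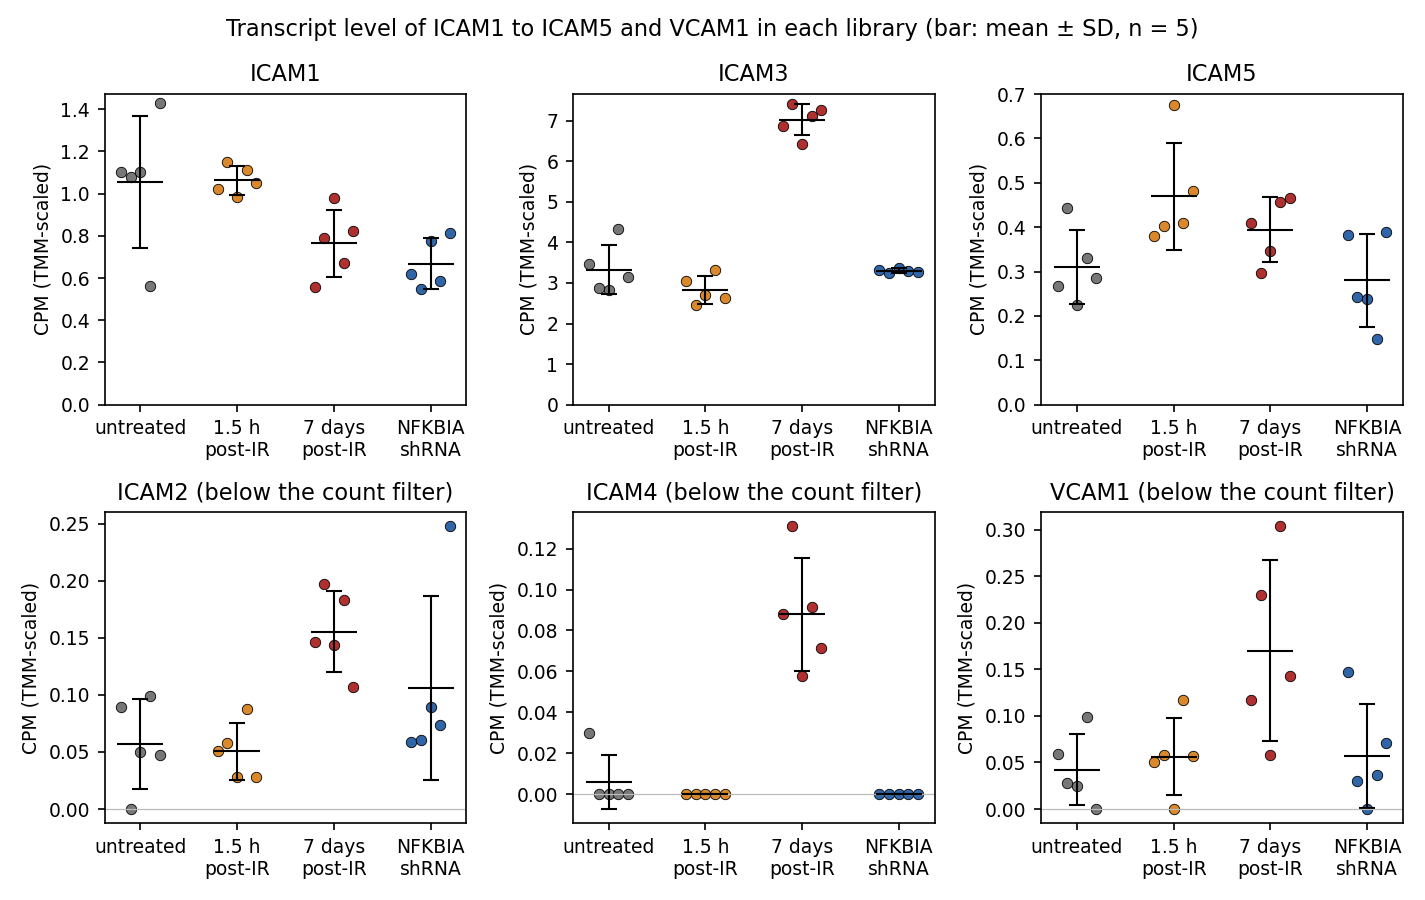
TMM-scaled CPM of each gene (vertical axes, a separate scale per panel) in every library of the 4 groups; points are libraries, the long tick is the mean and the error bar the SD of 5 libraries. ICAM3 at 7 days (6.43 to 7.42 CPM) lies above every other library, ICAM1 is lower at 7 days and in the knockdown than at 1.5 h, and ICAM4 is at 0 in all but 1 of the libraries outside the 7 days group.

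ICAM3 was the member with the clearest change: its level at 7 days after IR was 2.11-fold the untreated level, and neither of the other groups was called against untreated cells. It is the ICAM of resting leukocytes and a ligand of LFA-1 and of the dendritic cell lectin DC-SIGN. The untreated libraries held 117, 104, 113, 131 and 66 reads of ICAM3 (3.47, 2.88, 2.83, 4.32 and 3.14 CPM). At 1.5 h there were 120, 85, 96, 113 and 93 reads (3.05, 2.45, 2.7, 3.31 and 2.63 CPM). At 7 days there were 235, 226, 223, 234 and 203 reads (6.87, 7.42, 6.43, 7.12 and 7.27 CPM). All 5 libraries at 7 days were above all 15 others, the lowest of them at 6.43 CPM against 4.32 in the highest other library. The knockdown libraries held 113, 107, 113, 90 and 92 reads (3.33, 3.24, 3.38, 3.3 and 3.26 CPM) and lay within the untreated range.

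In edgeR's quasi-likelihood test ICAM3 rose at 7 days against untreated cells by a log2 fold change of 1.08 (SE 0.1, 95% interval 0.87 to 1.29, 2.11-fold, adjusted p = 6.42e-09, from 3.33 ± 0.61 to 7.02 ± 0.389 CPM, SD, n = 5). Calls needed a change larger than 0.5 on the log2 scale in either direction together with a Benjamini-Hochberg adjusted p under 0.05. ICAM3 was the only 1 of the 3 tested members called higher at 7 days, where 16.7% of all tested genes were called higher and 14.4% lower, and where 24.4% had every 7 days library above every untreated one. Against 1.5 h the log2 fold change was 1.31 (adjusted p = 3.65e-10 by edgeR) and against the knockdown 1.09 (adjusted p = 7.59e-09 by edgeR), where 16.7% and 15.8% of tested genes were called higher and 31.9% and 30.6% were higher without overlap. Within lane 4, which held libraries of both irradiated groups, ICAM3 was at 6.87 and 7.42 CPM at 7 days against 2.63 and 3.31 at 1.5 h, and in lane 5 it was at 6.43 to 7.27 CPM at 7 days against 3.33 in the knockdown library. The 1.5 h libraries differed from untreated by -0.23 (95% interval -0.45 to -0.01, adjusted p = 0.137 by edgeR). The knockdown differed by -0.01 (95% interval -0.23 to 0.22, adjusted p = 0.969 by edgeR), so a change of more than 0.23 on the log2 scale in either direction lay outside its interval. This bound is that of the fit without a lane term. With the lane as a term the value was 0.01 with an SE of 0.346, against 0.106 without it, so larger changes were not excluded there. In the order of group levels only the step from 7 days down to untreated cells passed the test; untreated cells (3.33 CPM), the knockdown (3.3 ± 0.0536) and 1.5 h (2.83 ± 0.346) did not differ from their neighbours beyond the threshold.

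ICAM3 moved together with part of a list of 8 leukocyte markers. The summed level of this list was 23.7 to 29 CPM at 7 days against 11.6 to 15.5 in untreated cells, 10.3 to 14.3 at 1.5 h and 9.6 to 11.7 in the knockdown. Of the 4 markers that could be tested, 2 rose at 7 days (16.7% of all tested genes), namely LCP1 (L-plastin, an actin bundler; log2 fold change 1.49) and ITGAM (1.48), while CORO1A was at -0.13. ITGAM is also counted with the integrins below. In the knockdown 3 of the 4 fell, PTPRC by 1.52, ITGAM by 0.76 and CORO1A by 0.50, where 7.54% of all tested genes were called lower. In the knockdown 2 were called lower with the lane as a term (14% of all tested genes) and 0 with Bonferroni correction. At 7 days 2 were called higher with the lane as a term (21.8% of all tested genes) and 2 with Bonferroni correction. Without untreated replicate 5, 4 markers of the list were called higher at 7 days. PTPRC, the common leukocyte antigen CD45, went from 1.05 ± 0.331 in untreated cells to 1.34 ± 0.233 CPM at 7 days (log2 fold change 0.40, adjusted p = 0.0759 by edgeR). Among the markers below the filter, the T cell marker CD3E had 0 or 1 read per library at 7 days and 0 to 12 in untreated cells, and the monocyte marker CD14 had 7 to 14 and 0 to 7. In bulk RNA, a share of other cells and a change of RNA in every cell cannot be told apart, and the part of these markers in the ICAM3 result was not tested.

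**Figure D2:**
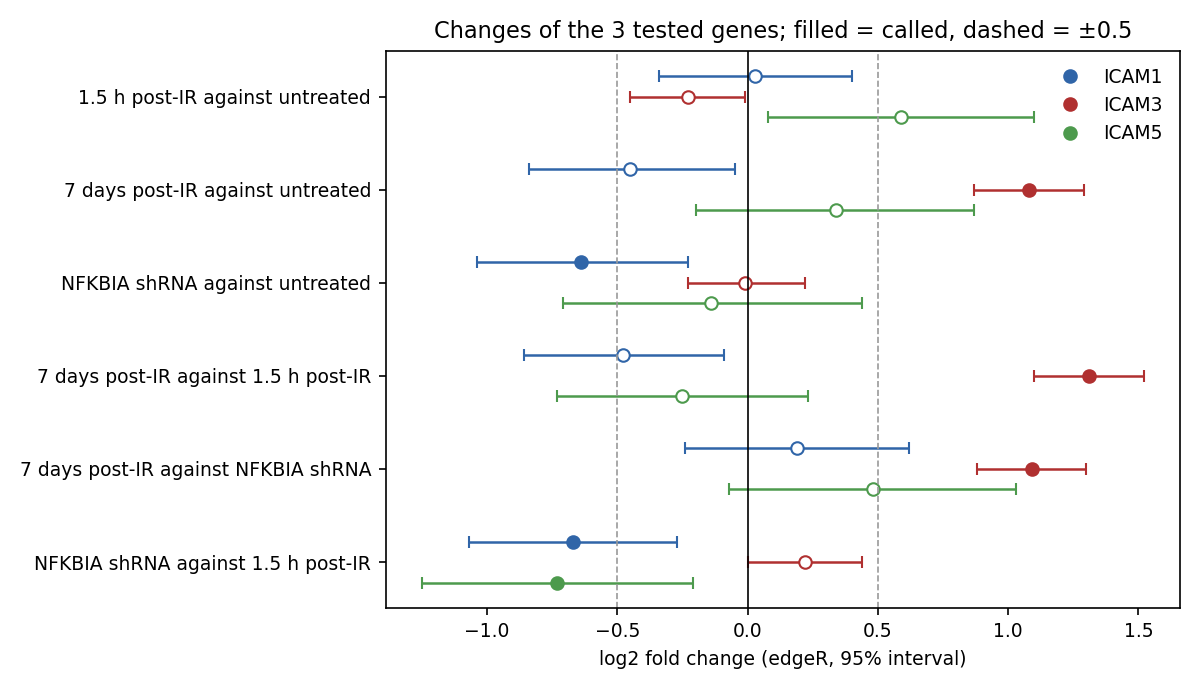
Log2 fold changes (horizontal axis) of ICAM1, ICAM3 and ICAM5 in the 6 comparisons between groups (vertical axis), with 95% intervals from edgeR; filled points were called and the dashed lines mark 0.5 in size. ICAM3 stands above 0.5 in the 3 comparisons of the 7 days group, and ICAM1 stands below -0.5 in both comparisons of the knockdown with untreated and 1.5 h cells.

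The 5 genes whose log2 CPM followed ICAM3 most closely over the 20 libraries were RYR1 (r = 0.972), SMPD1 (0.970), ATP6V1E1 (0.970), DPP7 (0.969) and EVA1A (0.967). RYR1 is a calcium release channel, SMPD1 the acid sphingomyelinase of the lysosome, ATP6V1E1 a subunit of the proton pump of lysosomes, DPP7 a peptidase of vesicles and EVA1A a membrane protein of autophagy. Their log2 fold changes at 7 days against untreated cells ran from 0.50 for ATP6V1E1 to 0.82 for DPP7, all smaller than the 1.08 of ICAM3. Because these genes were picked for following ICAM3, their rise at 7 days was largely set by that choice and is no separate result. These correlations are a description over libraries of 4 groups and rest mainly on the 7 days group; after the group means were taken off, r was 0.597 to 0.749.

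ICAM1, the receptor that leukocytes and rhinoviruses use, was not called higher in any irradiated or knockdown group, and it was lower in the knockdown. The untreated libraries held 37, 39, 44, 17 and 30 reads (1.1, 1.08, 1.1, 0.56 and 1.43 CPM). At 1.5 h there were 40, 40, 35, 38 and 37 reads (1.02, 1.15, 0.984, 1.11 and 1.05 CPM). The untreated group thus held both the highest of the 20 libraries (replicate 5) and a library near the lowest (replicate 4), whereas the 1.5 h libraries lay close together. At 7 days there were 19, 24, 34, 22 and 23 reads (0.556, 0.788, 0.98, 0.67 and 0.824 CPM), and in the knockdown 21, 18, 26, 16 and 23 reads (0.618, 0.546, 0.777, 0.587 and 0.815 CPM). All libraries of both groups were below all 1.5 h libraries, and both groups overlapped the untreated range only through untreated replicate 4.

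Between 1.5 h and untreated cells ICAM1 differed by a log2 fold change of 0.03 (SE 0.18, 95% interval -0.34 to 0.40, adjusted p = 0.931 by edgeR), at 1.06 ± 0.0692 against 1.05 ± 0.311 CPM (SD, n = 5). A rise of more than 1.32-fold at this time thus lay outside the interval; without untreated replicate 4 the log2 fold change was -0.13, and with the lane as a term -0.44. NFKBIA itself, measured in the same libraries, rose by 1.40 on the log2 scale at 1.5 h (adjusted p = 3.48e-09 by edgeR). None of the 3 tested members was called at 1.5 h by edgeR, where 3.65% of all tested genes were; 2 of them, ICAM3 and ICAM5, had an unadjusted p under 0.05, and DESeq2 also called 0.

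In the knockdown ICAM1 fell against untreated cells by 0.64 on the log2 scale (SE 0.2, 95% interval -1.04 to -0.23, 0.643-fold, adjusted p = 0.0129 by edgeR), from 1.05 ± 0.311 to 0.668 ± 0.12 CPM. It was the only 1 of the 3 tested members called in this comparison, where 7.54% of all tested genes were called lower and 5.17% higher. When the lane was added its value was -1.55. The groups overlapped, with an exact permutation p of 0.0635 (two-sided), and the call was lost when only the untreated and knockdown libraries were fitted (-0.64, adjusted p = 0.058 by edgeR). Against 1.5 h ICAM1 fell by 0.67 (adjusted p = 0.00786 by edgeR, exact permutation p = 0.00794, the smallest that 5 against 5 can give), where 7.59% of tested genes were called lower and 22.6% had all libraries lower without overlap. With the lane as a term this was -1.11 with an adjusted p of 0.145 by edgeR.

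At 7 days ICAM1 stood at 0.764 ± 0.161 CPM, which was -0.45 on the log2 scale against untreated cells (95% interval -0.84 to -0.05, adjusted p = 0.0457 by edgeR), which was under the size needed for a call. Leaving out untreated replicate 4 took it to -0.62 (adjusted p = 0.00196 by edgeR) and leaving out 7 days replicate 3 to -0.58 (adjusted p = 0.0189 by edgeR), both of which would be called, as would the value with the lane as a term (-1.13, adjusted p = 0.0409 by edgeR). Against 1.5 h the value was -0.48 (adjusted p = 0.032 by edgeR), with all 7 days libraries below all 1.5 h libraries; 29.9% of tested genes were lower without overlap in that comparison. Within lane 4 it was 0.556 and 0.788 CPM at 7 days against 1.05 and 1.11 at 1.5 h, and edgeR on that lane gave -0.71 (adjusted p = 0.0331). A lane term over all libraries gave -0.69 (adjusted p = 0.0588 by edgeR). The comparison with 1.5 h would be called without 1.5 h replicate 1 or 3 or 7 days replicate 2, 3 or 5 (-0.61 to -0.50, adjusted p from 0.0122 to 0.04 by edgeR). The 7 days and knockdown groups did not pass the test against each other (log2 fold change 0.19, 95% interval -0.24 to 0.62, adjusted p = 0.446 by edgeR). The order of the levels was thus 1.5 h, untreated, 7 days and knockdown, and no step between neighbours in this order was called.

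The upstream sequence of ICAM1 is shown because the gene is listed among NF-κB and STAT targets and did not rise here. The RefSeq table of starts, on GRCh38.p14 (the counts were made on hg19), held a window of 250 bases before to 50 after the start for 5 of the 6 genes, and none for ICAM2. The REL consensus is a form of the κB site that differs from the strict κB consensus given for VCAM1 below and does not include it. The ICAM1 window held the REL consensus on both strands, overlapping itself, and it was found in 9.74% of all 35116 RefSeq windows. The ICAM1 window also held the STAT motif TTCNNNGAA, found in 7.66% of windows, as well as the GC box GGGCGG (45% of windows) and TATAAA (11.5%). Both stretches below lie on the plus strand, within the first exon of a longer ICAM1 transcript in GENCODE 29, with the motif in capitals: the stretch around the REL consensus covers chr19:10270923-10270952, and the stretch around the STAT motif chr19:10271034-10271063. A match is a description of these letters and not a measured binding site.
ICAM1 REL consensus: tgctttagctTGGAAATTCCGgagctgaag
ICAM1 STAT motif: aggcgcgaggtTTCCGGGAAagcagcaccg

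The ratio of ICAM1 to ICAM3 within a library compares both genes in the same reads. The log2 ratio of ICAM1 to ICAM3 was -1.64 ± 0.68 in untreated cells, -1.36 ± 0.20 at 1.5 h, -3.12 ± 0.32 at 7 days and -2.22 ± 0.23 in the knockdown (SD, n = 5). The 7 days ratio was lower than the untreated one by 1.48 (exact permutation p = 0.0159, two-sided; 0.0952 after adjustment over the 6 ratios tested). This ratio does not depend on how libraries were scaled, and it did not pass the threshold after adjustment.

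ICAM5, the neuronal ICAM, had 9, 16, 9, 10 and 6 reads in untreated cells (0.267, 0.443, 0.225, 0.33 and 0.285 CPM) and 15, 14, 24, 14 and 17 at 1.5 h (0.381, 0.403, 0.675, 0.41 and 0.482 CPM). At 7 days it had 14, 9, 12, 15 and 13 reads (0.41, 0.296, 0.346, 0.456 and 0.465 CPM), and in the knockdown 13, 8, 8, 4 and 11 (0.383, 0.243, 0.239, 0.147 and 0.39 CPM). The 1.5 h libraries were the highest on average, and replicate 3 of that group the highest of all, but the groups overlapped each other. The log2 fold change at 1.5 h against untreated was 0.59 (95% interval 0.08 to 1.10, adjusted p = 0.0905 by edgeR, exact permutation p = 0.0317), which was not called. It would be called without untreated replicate 2 (0.78, adjusted p = 0.0338 by edgeR).

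Only the comparison of the knockdown with 1.5 h was called for ICAM5, at a log2 fold change of -0.73 (95% interval -1.25 to -0.21, adjusted p = 0.0237 by edgeR), and this call was lost on leaving out 1.5 h replicate 3 (adjusted p = 0.0975 by edgeR) or knockdown replicate 2, 3 or 4 (0.0554, 0.0574 and 0.0666) and with the lane as a term (-0.46, adjusted p = 0.697 by edgeR). The 7 days and knockdown groups differed from untreated cells by 0.34 (adjusted p = 0.264 by edgeR) and -0.14 (adjusted p = 0.74 by edgeR). The order of the levels was 1.5 h, 7 days, untreated and knockdown, and no step between neighbours was called (7 days against 1.5 h -0.25, adjusted p = 0.363 by edgeR). Neuron markers summed to 156 to 196 CPM in untreated cells, 159 to 190 at 1.5 h, 234 to 260 at 7 days and 248 to 266 in the knockdown. Of the 5 neuron markers tested, 2 rose at 7 days (SYP by 2.60 and RBFOX3 by 0.98), where 16.7% of all tested genes were called higher and where 1 was called with the lane as a term, and 2 in the knockdown (SYP by 0.96 and TUBB3 by 0.62), where 5.17% were. The part of these markers in the ICAM5 values was not tested.

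VCAM1 was nearly silent in these cells, and its few reads were most frequent at 7 days. The untreated libraries held 2, 1, 1, 3 and 0 reads, the 1.5 h libraries 2, 2, 0, 4 and 2, the 7 days libraries 4, 7, 2, 10 and 4, and the knockdown libraries 5, 1, 0, 1 and 2. The 7 days libraries overlapped every other group, since replicate 3 had only 2 reads, and replicate 4 alone gave 10 of the 27 reads. Summed over libraries and set against depth, VCAM1 was 3.88-fold higher at 7 days than in untreated cells (exact 95% interval 1.65 to 10.6, counting error only), 3.02-fold higher than at 1.5 h (1.42 to 6.99) and 2.92-fold higher than in the knockdown (1.33 to 7.06). The fit without the filter gave a log2 fold change of 1.84 at 7 days against untreated (SE 0.64, adjusted p = 0.0179 by edgeR, exact permutation p = 0.0238), which was lost without 7 days replicate 4 (1.51, adjusted p = 0.0685 by edgeR) and with the lane as a term (4.33, adjusted p = 0.326 by edgeR). Against 1.5 h the same fit gave 1.51 (adjusted p = 0.0352 by edgeR), which was lost without 1.5 h replicate 1, 2, 3 or 5 or 7 days replicate 2 or 4 (adjusted p from 0.0566 to 0.13 by edgeR) and with the lane as a term (0.92, adjusted p = 0.401 by edgeR). Against the knockdown it gave 1.48 (adjusted p = 0.0472 by edgeR, exact permutation p = 0.0556), and in lane 5 the 7 days libraries, at 0.0577 to 0.304 CPM, lay on both sides of the knockdown library at 0.147 CPM. The knockdown held 9 reads against 7 in untreated cells (1.33-fold, 0.44 to 4.2), so a difference was not detectable at this depth, and the same was so at 1.5 h (1.29-fold, 0.442 to 3.98).

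The sequence before the VCAM1 start is shown whole because VCAM1 was the only member whose window matched the strict κB consensus, which 5.91% of all RefSeq windows hold. The 250 bases lie at chr1:100719492-100719741 on the plus strand of GRCh38.p14 and overlap no exon in GENCODE 29. The κB consensus, in capitals, runs from base 62 to base 53 before the start, and TATAAA begins 29 bases before it. None of the windows of ICAM3, ICAM4 and ICAM5 matched either κB form, which says only that these letters are not there.
VCAM1 upstream: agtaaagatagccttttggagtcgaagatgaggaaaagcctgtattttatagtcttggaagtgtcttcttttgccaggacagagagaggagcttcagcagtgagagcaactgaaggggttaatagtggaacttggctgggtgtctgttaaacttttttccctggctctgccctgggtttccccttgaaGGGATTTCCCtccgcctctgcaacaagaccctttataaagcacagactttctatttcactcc

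ICAM2, a ligand of LFA-1 on endothelium, had 3, 0, 2, 3 and 1 reads in untreated cells, 2, 2, 1, 3 and 1 at 1.5 h, 5, 6, 5, 6 and 3 at 7 days and 2, 2, 3, 2 and 7 in the knockdown. As CPM all 7 days libraries (0.107 to 0.197) were above all untreated and all 1.5 h libraries (21.4% and 27.7% of genes in the fit without the filter), and the highest library of all was knockdown replicate 5 (0.248 CPM). Summed over libraries ICAM2 was 2.8-fold higher at 7 days than in untreated cells (1.26 to 6.81), and the fit without the filter gave 1.38 (SE 0.49, adjusted p = 0.0205 by edgeR). This was lost without untreated replicate 2, the library with 0 reads (1.06, adjusted p = 0.0702 by edgeR), and with the lane as a term (1.41, adjusted p = 0.579 by edgeR). The knockdown was 1.84-fold the untreated level (0.765 to 4.72). PRR29 overlaps ICAM2 on the other strand; it was at a log2 fold change of 0.38 at 7 days and was called higher in the knockdown (0.90), and whether its reads entered the ICAM2 counts was not tested, since the strand setting of the counting is not given in the sources used here. SCN4A, a muscle sodium channel gene, was the other tested neighbour of ICAM2 on chromosome 17. It passed the filter on low counts only through its 7 days libraries, so none of its differences is used here.

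ICAM4, the red cell ICAM, had 1 read in untreated replicate 1 and 0 in every other library outside the 7 days group. At 7 days it had 3, 4, 2, 3 and 2 reads, so that all 5 libraries held some. The 14 reads were a 14.1-fold excess over the single untreated read, with an interval from 2.14 to 596. Against a floor of 3 counts over the group, and with the 14 reads taken as they stand, without their own counting error, ICAM4 was at least 5.22-fold higher than at 1.5 h and at least 4.54-fold higher than in the knockdown. The fit without the filter gave 3.16 against untreated cells (adjusted p = 0.00239 by edgeR) and 4.86 with the lane as a term (adjusted p = 1 by edgeR). Without untreated replicate 1, which held the read, it was 4.56 (adjusted p = 0.00233 by edgeR). Against 1.5 h, which shares lane 4 with the 7 days group, the adjusted p was 3.89e-04 by edgeR and 0.0176 with the lane as a term. Without the filter all 3 of these low genes were called higher at 7 days against untreated cells, where 16.7% of the 19097 genes were; for ICAM2 and ICAM4, whose groups did not overlap, the share of genes higher without overlap was 21.4%.

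Endothelial markers, which would mark another cell type that carries ICAM2 and VCAM1, summed to 8.4 to 11.4 CPM in untreated cells and 9.45 to 11.8 at 7 days. Of the 7 markers in the table, CLDN5 and EMCN had at most 1 read per library, and 1 of the 3 that were tested rose at 7 days (16.7% of all tested genes), TIE1, a receptor kinase (2.42 on the log2 scale). TEK, the receptor of angiopoietins and the most abundant of the tested 3, went from 8.37 ± 1.07 to 7.08 ± 0.417 CPM (-0.25, adjusted p = 0.00941 by edgeR), which was under the size needed for a call. KDR, which was below the filter, had 9 to 24 reads at 7 days and 1 to 3 in untreated cells; it was picked after its values had been seen. The part of these genes in the results on ICAM2 and VCAM1 was not tested.

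ICAM1, ICAM4 and ICAM5 sit side by side on chromosome 19, with ICAM3 a few genes further on, in the order DNMT1, S1PR2, MRPL4, ICAM1, ICAM4, ICAM5, ZGLP1, FDX1L, RAVER1, ICAM3 and TYK2. The cluster did not move as a block at 7 days. Of 9 tested neighbours 3 were higher and 3 lower (16.7% and 14.4% of all tested genes), with a median log2 fold change of -0.11 against 0.01 for all tested genes. RAVER1, which lies beside ICAM3 on the same strand and encodes an RNA-binding protein, fell by 0.97 on the log2 scale (adjusted p = 6.35e-05 by edgeR), whereas TYK2, the kinase gene on the other side of ICAM3, was at -0.11. ZGLP1 (0.59) and FDX1L (0.55) rose, and DNMT1, the maintenance DNA methyltransferase, fell by 0.88. In the knockdown 2 of the 9 neighbours were lower (7.54% of all tested genes), including RAVER1 (-0.56), with a median of -0.35 against -0.01 for all tested genes. At 1.5 h edgeR called 0 of 9, where it called 3.65% of all tested genes, with 4 at an unadjusted p under 0.05. Annotated antisense transcripts overlap ICAM1, ICAM3 and ICAM4, and their reads cannot be told from those of the genes without the strand setting.

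**Figure D3:**
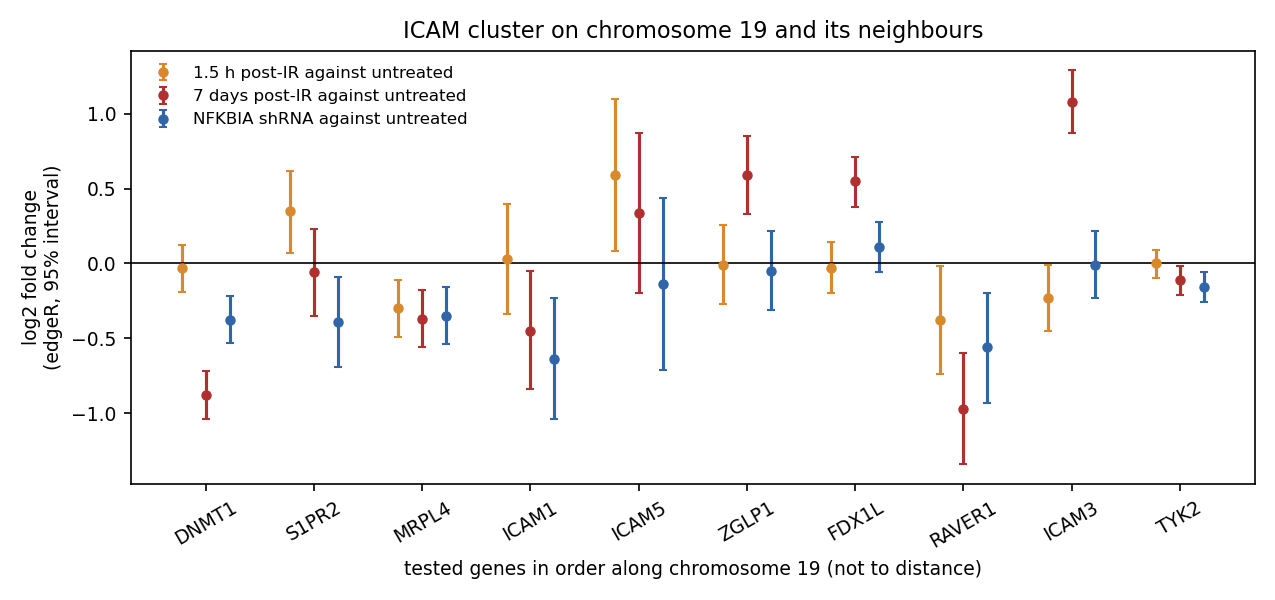
Log2 fold changes with 95% intervals from edgeR (vertical axis) of the tested genes with a symbol around the ICAM cluster, in their order along chromosome 19 (horizontal axis, not to distance), for the 3 comparisons with untreated cells. At 7 days ICAM3 (1.08) stands between RAVER1 (-0.97) and TYK2 (-0.11).

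Adding the lane as a term raised the share of all tested genes called against untreated cells. It gave 11.9% higher and 13.6% lower at 1.5 h, 21.8% and 19.5% at 7 days, and 13.3% and 14% in the knockdown. The counts with the lane given for the gene lists that follow are to be read against these shares.

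Of 6 tested integrin subunits that bind ICAMs or VCAM1, ITGA9 passed the filter on low counts only through its 7 days libraries (9 to 18 reads, against 0 to 7 in the others), so none of its differences is used here. Of the other 5 subunits 4 were higher at 7 days, where 16.7% of all tested genes were called higher. ITGAX, the α chain of the integrin p150,95, rose from 6.12 ± 1.28 to 25.7 ± 1.4 CPM (log2 fold change 2.08). ITGAM, the α chain of Mac-1, rose from 2.17 ± 0.55 to 5.95 ± 0.245 CPM (1.48), and ITGB2, the partner of ITGAX and ITGAM, by 0.59. The α chain of LFA-1, ITGAL, had 0 to 8 reads and was not tested. ITGA4, which pairs with ITGB1 into the VCAM1 receptor VLA-4, rose by 0.51, and ITGB1 itself, at 1200 ± 130 CPM in untreated cells, was at -0.23. With the lane as a term ITGAX, ITGAM and ITGB2 were called higher at 7 days and ITGA4 was not. At 1.5 h 0 of the 5 were called by edgeR or by DESeq2, where edgeR called 3.65% of all tested genes. Of the 5, 0 had an unadjusted p under 0.05 at 1.5 h, while the lane term called ITGB2 higher. In the knockdown, where 5.17% of tested genes were called higher and 7.54% lower, ITGAX rose (1.11) while ITGAM fell (-0.76). When the lane was added 0 of the 5 were called in this comparison, and with Bonferroni correction 0 were called lower.

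**Figure D4:**
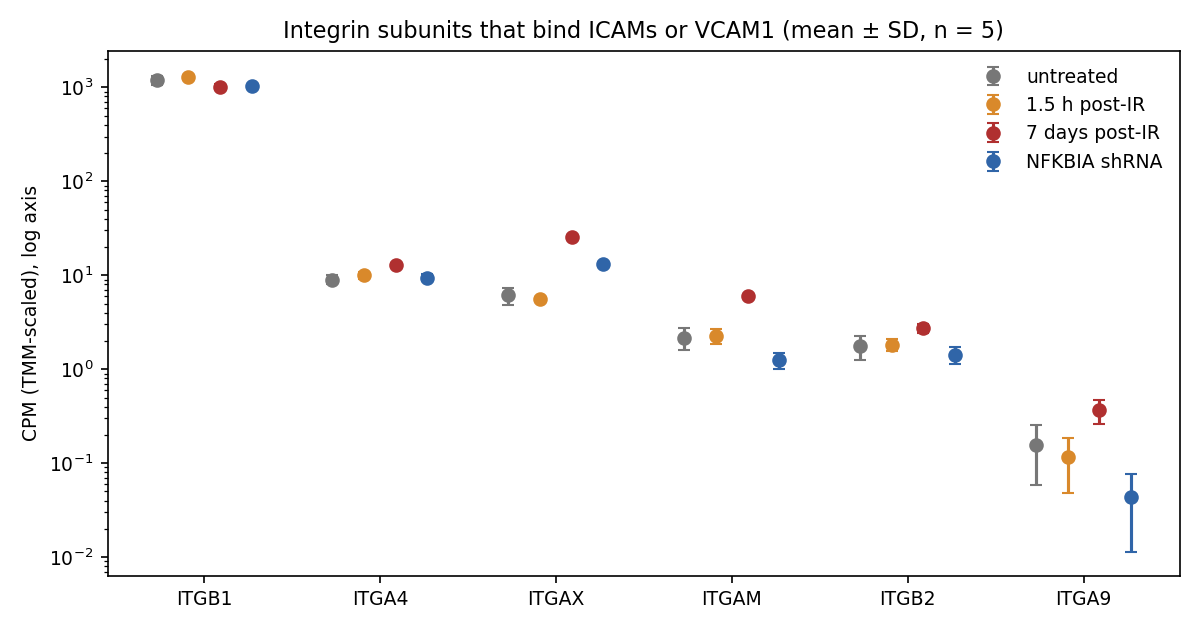
TMM-scaled CPM on a log axis (vertical) of the 6 tested integrin subunits (horizontal) in the 4 groups; points are means and error bars the SD of 5 libraries. ITGAX goes from 6.12 CPM in untreated cells to 25.7 at 7 days and 13.2 in the knockdown, whereas the group means of ITGB1 lie between 1020 and 1300 CPM.

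Other adhesion molecules gave no common direction. Among selectins, selectin ligands and junction molecules used by leukocytes to cross endothelium, 1 of 7 tested was higher at 7 days (16.7% of all tested genes), SELPLG (1.13), the ligand of P-selectin. At 1.5 h 2 of the 7 were lower (1.57% of all tested genes), SELPLG (-0.55) and ESAM (-0.73), and in the knockdown MADCAM1 (0.66) was among those higher and ESAM (-0.80) was lower, where 5.17% and 7.54% of all tested genes were called. With Bonferroni correction 0 of these 7 were called at 1.5 h or in the knockdown. SELE, the cytokine-induced E-selectin, had 0 reads in all 15 libraries outside the 7 days group and 3 to 7 reads in each 7 days library; it was below the filter and was picked after its values had been seen. Of 18 other adhesion molecules of the immunoglobulin superfamily, 5 were higher and 3 lower at 7 days (16.7% and 14.4% of all tested genes), or 3 higher and 6 lower with the lane as a term, from PVRL4 (nectin-4; 3.43) to BCAM (-1.77), NCAM1 (-1.44) and L1CAM (-1.42). At 1.5 h 1 was higher (PVRL4, 2.10; 2.08% of all tested genes). In the knockdown 1 was higher (PVRL4, 0.84; 5.17%) and 2 were lower (7.54%), among them L1CAM (-1.49). Adding the lane gave 2 higher and 6 lower at 1.5 h. It gave 2 higher and 5 lower in the knockdown.

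The cytoplasmic partners that link ICAMs and VCAM1 to actin gave few calls without a lane term. Of 13 tested, CTTN (cortactin) rose by 0.58 and EZR (ezrin) fell by 0.52 at 7 days, where 16.7% of all tested genes were called higher and 14.4% lower. By edgeR and DESeq2 0 were called at 1.5 h, where edgeR called 3.65% of all tested genes, and 1 had an unadjusted p under 0.05. Both tools also called 0 in the knockdown, where edgeR called 5.17% of all tested genes higher and 7.54% lower, and 8 had an unadjusted p under 0.05. A lane term gave 2 higher and 2 lower at 1.5 h, and 2 higher and 3 lower at 7 days. In the knockdown it gave 2 higher and 5 lower. The call of CTTN was lost without untreated replicate 5 and that of EZR without untreated replicate 2 or when libraries were scaled by size only. Among 6 tested proteases that can cut ICAMs or VCAM1 from the surface, MMP14 rose by 0.57 and MMP9 fell by 0.90 at 7 days (16.7% and 14.4% of all tested genes). With the lane as a term 1 was higher and 2 were lower at 7 days. In the knockdown MMP9 fell by 2.28 (7.54% of all tested genes were called lower). There ADAM9 rose by 0.51 (5.17% were called higher), a call that DESeq2 did not make. At 1.5 h both tools called 0, where edgeR called 3.65% of all tested genes, with 3 at an unadjusted p under 0.05.

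NF-κB and cytokine signalling are the known regulators of ICAM1 and VCAM1. Of 13 NF-κB subunits and inhibitors, 4 were higher at 1.5 h (2.08% of all tested genes), 6 higher at 7 days (16.7%) and 3 lower in the knockdown (7.54%), NFKBIA among the latter. NFKBIZ, a nuclear cofactor of NF-κB, rose by 1.19, the deubiquitinase gene CYLD by 0.91, RELB by 0.66 and the inhibitor NFKBIE by 0.56 at 7 days. In the knockdown RELB fell by 0.51; the 3 lower calls became 1 with Bonferroni correction, with upper-quartile factors and with library size only. With the lane as a term the same 13 genes gave 5 higher and 4 lower at 7 days and 6 lower in the knockdown. Of 20 cytokine receptors, kinases and transcription factors that act on ICAM1 or VCAM1, 3 were higher at 1.5 h (2.08% of all tested genes), including CEBPB (0.60). At 7 days 2 were lower (14.4%), HMGB1 (-1.20), a chromatin protein that acts as an alarm signal when released, and KLF4 (-1.12). In the knockdown 1 was higher (5.17%), the TNF receptor gene TNFRSF1B (0.96), and 1 was lower (7.54%). Fitted with the lane, 4 were higher and 3 lower at 1.5 h, and 1 higher and 4 lower at 7 days. In the knockdown 0 were then higher and 7 lower.

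**Figure D5:**
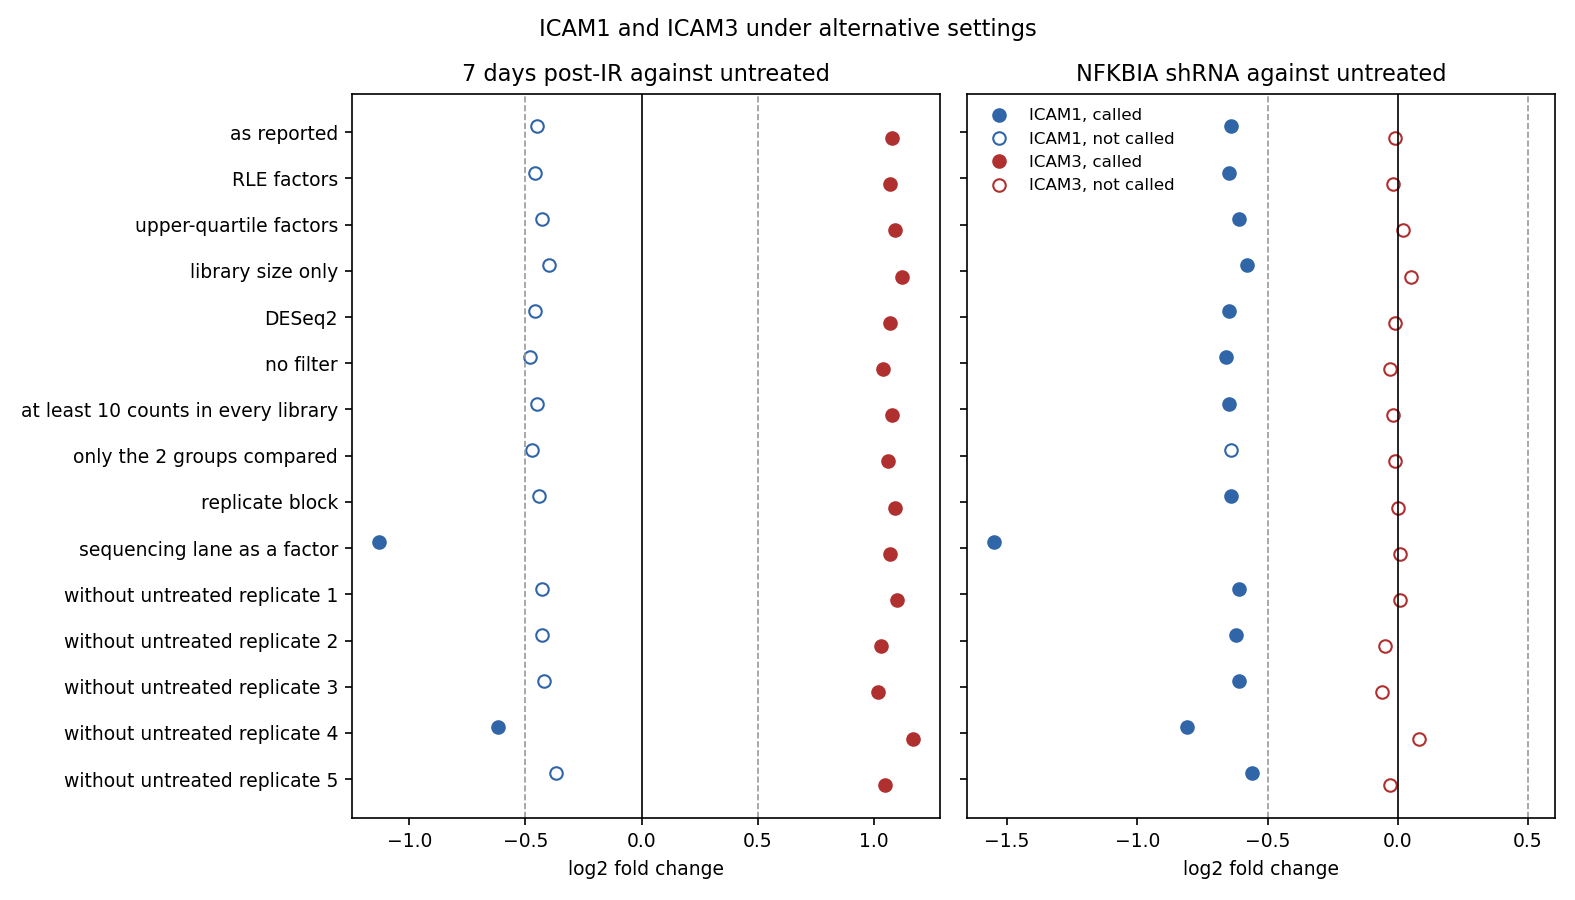
Log2 fold changes (horizontal axes) of ICAM1 and ICAM3 under alternative settings (vertical axis) at 7 days (left) and in the knockdown (right) against untreated cells; filled points pass an adjusted p of 0.05 and a size of 0.5 (dashed lines). ICAM3 at 7 days stays between 1.02 and 1.17, whereas ICAM1 moves most with the lane as a term (-1.13 at 7 days and -1.55 in the knockdown).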

How the data were processed

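Stranded mRNA libraries of U2-OS cells were read from 1 end on a HiSeq instrument, according to the study, which calls the 5 samples per group biological replicates; the labels do not say that they came from separate cultures. The authors deposited whole-number counts per gene without normalization. The submitters' processing notes name bcl2fastq, Trimmomatic, STAR 2.4.2a and hg19; the counting tool, annotation and strand setting are not given in the sources used here. Of the 20314 genes 1679 had no symbol; they were kept by their gene ID.

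The analysis was run with edgeR 4.0.16 under R 4.3.3 (filterByExpr with a minimum count of 10, TMM, robust quasi-likelihood fit of all 20 libraries with a term per group, Benjamini-Hochberg over all 14992 genes that passed). Calls needed a change beyond 0.5 on the log2 scale and an adjusted p below 0.05; ratios and log2 CPM used a prior count of 2. CPM are TMM-scaled. Single genes were also compared by exact two-sided permutation tests of log2 CPM. Intervals of summed reads are exact and cover counting error only. DESeq2 1.42.0 was an alternative. The scripts were tested on simulated data. The gene members and all lists were chosen with earlier results of these data known, and the lists are not independent evidence. From each list up to 4 genes are named, by the size of their change at 7 days among those called against untreated cells; members, neighbours within 50 kb, and the 5 genes most correlated with each tested member above a mean of 1 CPM are named too. ITGA4, ITGB1, ITGAL and marker or regulator genes outside this rule were named after their values had been seen. PECAM1 was not analysed here, and single values of some list genes are not reported here. Sequences come from RefSeq.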

Additional observations from a re-analysis of the deposited data

Results flagged for a closer look

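In 22 groups of 5 libraries with any spread (6 genes in 4 groups), 2 libraries stood apart by Dixon's criterion. Its nominal chance share of about 5% of groups does not hold for groups with only a few reads, so the 2 flags are not set against it. ICAM2 in knockdown replicate 5 was at 0.248 CPM (7 reads), with 0.837 of the group's range between it and the next library. ICAM4 in untreated replicate 1 was at 0.0297 CPM (1 read), the only untreated library with a read. A group in which only 1 library holds reads always meets this criterion. Both values rest on few reads, and both are included in the values given above.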

How the results depend on the processing

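Of 380 alternative values for the fold changes and ratios, 344 kept their direction and their side of the threshold, 13 lost the call, 11 gained it and 12 changed sign. ICAM3 at 7 days against untreated cells kept its call in 21 of 21 alternatives (1.02 to 1.17). The alternatives for ICAM2, ICAM4 and VCAM1 without the filter were chosen after seeing the data and are given beside these genes. With the lane as a term, ICAM1 was at -0.44 at 1.5 h and at -1.13 at 7 days against untreated cells (adjusted p = 0.0409 by edgeR, a call gained) and at -1.11 in the knockdown against 1.5 h (call lost), ICAM3 in the knockdown at 0.01, and ICAM5 in the knockdown at 0.30 against untreated and at -0.46 against 1.5 h (call lost). This fit ties the untreated group to the others through 1 library. Within lane 4, ICAM1 at 7 days against 1.5 h was at -0.71, and without the filter at -0.50, both called. Fitting only both groups took the call of ICAM1 in the knockdown against untreated cells (-0.64, adjusted p = 0.058 by edgeR). Bonferroni correction and a threshold of 1 on the log2 scale left the values as they were and took the calls of ICAM1 in the knockdown against untreated (-0.64) and 1.5 h (-0.67), and of ICAM5 against 1.5 h (-0.73). ICAM3 in the knockdown, not called in any fit, was at 0.02 with upper-quartile factors, 0.05 with library size alone and 0.00 with the replicate number as a block.

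Leaving out each library in turn gave -0.13 to 0.12 for ICAM1 at 1.5 h, -0.62 to -0.36 at 7 days against untreated and -0.61 to -0.40 against 1.5 h. It gave -0.06 to 0.08 for ICAM3 in the knockdown, 0.43 to 0.78 for ICAM5 at 1.5 h, -0.28 to 0.05 in the knockdown, and -0.88 to -0.57 in the knockdown against 1.5 h. The cause of these changes was not tested. Same-numbered libraries did not deviate together (in every comparison at least 4 of 5 pairs had a correlation at or under 0.1), so the numbers were not taken as pairs. With the replicate block ICAM1 in the knockdown was at -0.64 (adjusted p = 0.0121 by edgeR) and ICAM3 at 7 days at 1.09, and the block changed no call of ICAM1, ICAM3 and ICAM5; for ICAM2, ICAM4 and VCAM1 it was run at 7 days against untreated and against 1.5 h, where it changed no call. With the lane as a term the number of all genes called went from 312 higher and 235 lower at 1.5 h to 1780 and 2036, and from 775 higher and 1131 lower in the knockdown to 1993 and 2101. With a threshold of 1 there were 65 and 25 at 1.5 h, 1146 and 680 at 7 days (from 2504 and 2152), and 217 and 307 in the knockdown. ICAM2, ICAM4 and VCAM1 had 0 to 10 reads per library, so differences inside their counting intervals were not detectable.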
